A study of Drosophila melanogaster with 40 samples.

Results

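Binding of Capicua (Cic) after 5 min of light was compared with binding in the same line kept without light, at all 103 peaks of the final peak list of the study, out of 468 regions called by MACS2. Peaks were taken as listed, so the change with light had no part in choosing them. The comparison rests on 6 of the 40 libraries of the series. These are 3 libraries of immunoprecipitated DNA after 5 min of light and 3 from embryos without light.

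The assay was chromatin immunoprecipitation with sequencing (ChIP-seq) in Drosophila embryos of nuclear cycle 14, the stage at which the syncytial embryo forms cells. Both groups had the genotype (UAS-OptoSOS/gal4);(CicsfGFP/gal4), in which the maternal triple driver MTD gal4 drives OptoSOS in the female germline and Cic carries super-folder GFP at its own locus. The 5 min group received light for 5 min, and the no light group received none. Wild type embryos of genotype (+/+);(CicsfGFP/+) had the tagged Cic but no OptoSOS, and OreR embryos had no tag. An antibody against GFP took down Cic, and the 2 lines without OptoSOS served for the peak calls. Embryos were collected in the dark at 3 to 4 h and fixed for 15 min, which is longer than the light pulse. Each library pooled whole embryos, so a loss in some nuclei and a smaller loss in all nuclei cannot be told apart.

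Cic is an HMG-box repressor that sits on the control DNA of genes whose activity depends on receptor tyrosine kinases. Phosphorylation by the kinase ERK relieves this repression and lets Cic leave the DNA and later the nucleus. In the normal embryo the receptor Torso does this at both poles, where tll and hkb are switched on, and the EGF receptor does it along the flanks, where ind is. Under blue light OptoSOS brings the catalytic part of SOS, which activates Ras, to the membrane, and so turns on ERK wherever light falls.

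Each condition was deposited as 1 matrix with its replicates already combined, so no value has a replicate error and no test across samples was possible. The value of a peak is the mean read coverage within 250 bp of the window centre, divided by the mean coverage of the noise peaks of the same condition ("coverage over noise", where 1 is the noise level). Both coverages were inferred from deposited z-scores, as described under processing. The share held is the 5 min value as a percent of the no light value. A peak is said to be lower or higher where the 95% counting interval of this share, given in brackets, excludes 100%. The interval covers counting error only, and the median peak had 97.2 read equivalents after 5 min and 221 without light. Noise coverage was close in both, at 3.90 reads after 5 min and 4.33 reads without light.

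Cic signal was lower after 5 min of light at most peaks. Median coverage over noise was 3.62 after 5 min and 7.41 without light, and the median share held was 49.4% (95% interval over peaks 44.6 to 53.6). Signal was lower beyond counting error at 96 peaks, which is 93.2% of all peaks, and higher at 1, which is 0.971%. By any amount, 100 peaks (97.1%) lay below their no light value. A fall of at least 2-fold was seen at 53 peaks (51.5%), and one of at least 3-fold at 14 peaks (13.6%). Without any light, the no light line itself held 52.5% to 174% of wild type signal over the same peaks, with a median of 119%. It was higher than wild type at 48 peaks (46.6%), lower at 3 (2.91%) and at least 2-fold lower at none (0%). Under the bottom of that range, 52.5%, which is the value of CG42807 alone, fell 60 of the 103 peaks after 5 min. No light values enter both ratios, above the line over wild type and below it in the share held. The range is therefore no independent measure for these shares. Against wild type, 36 peaks were at least 2-fold lower after 5 min.

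**Figure D1:**
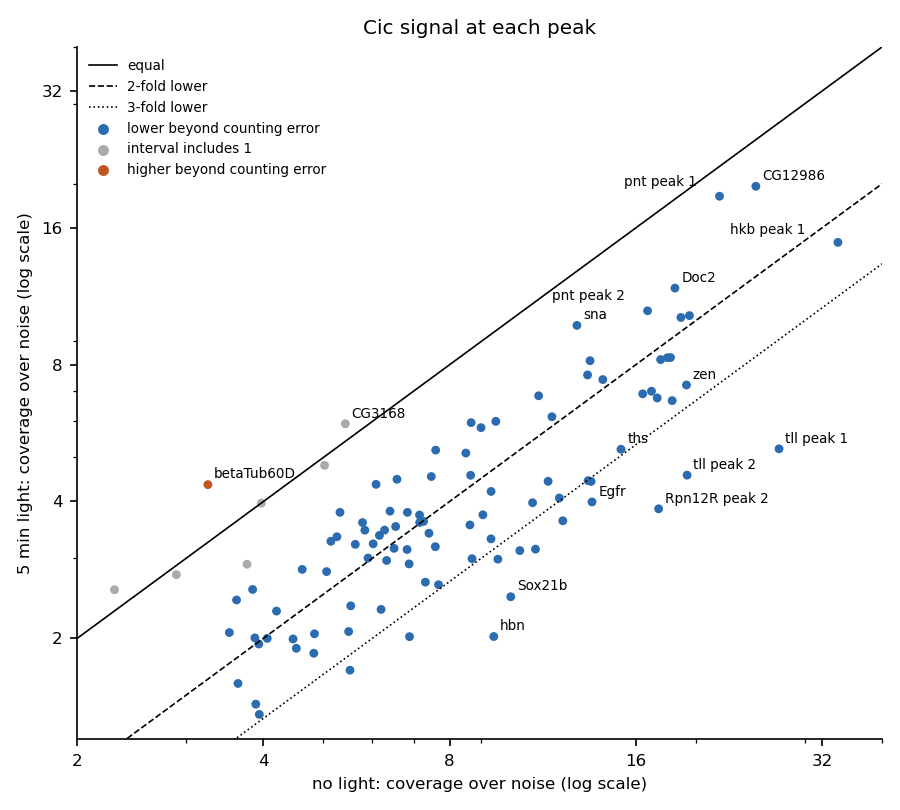
Coverage over noise at each of the 103 peaks after 5 min of light (vertical, log scale) against no light (horizontal, log scale), with lines for equal, 2-fold lower and 3-fold lower signal. Most peaks lie below the line of equality, tll peaks 1 and 2 and Rpn12R peak 2 lie far below the 3-fold line, and pnt peak 1 and CG12986 lie just under equality.

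Strong peaks changed places. The highest no light signal was hkb peak 1, followed by tll peak 1, CG12986 and pnt peak 1. After 5 min the order began with CG12986 and pnt peak 1, hkb peak 1 ranked 3, and tll peak 1, rank 2 without light, ranked 26. The peak of hbn ranked 92 after 5 min and 38 without light. The peak of CG3168 moved the other way, to rank 24 after 5 min, against rank 78 without light. Across the 103 peaks, 5 min and no light coverage had a Spearman correlation of 0.767, given as a description.

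The 14 peaks with a fall of at least 3-fold held a median of 29.3%, with median coverage over noise of 3.38 after 5 min and 11.6 without light. In order of loss they were annotated to tll (peak 1), hbn, Rpn12R (peak 2), tll (peak 2), Sox21b, fend (peak 1), aos (peak 2), Egfr, CG17300, Mkp3, pdm2, CG15599, tld and bbg. Of the rest, 39 peaks were 2-fold to 3-fold lower with a median share of 41.9%, and 33 were 1.5-fold to 2-fold lower with a median of 56.8%. A further 14 lay under 1.5-fold, with a median of 73.9%, and 10 of these were lower beyond counting error. Shares ran on without a gap across the limits of these groups. The peak of bbg at 33.2% and that of ind at 33.8% lay on either side of the 3-fold limit, and tna at 49.8% and CG16815 at 50.3% on either side of the 2-fold limit. CG6163 at 64.7% and Or67d at 66.7% lay on either side of the 1.5-fold limit. Values of 3 peaks were above 100%.

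**Figure D2:**
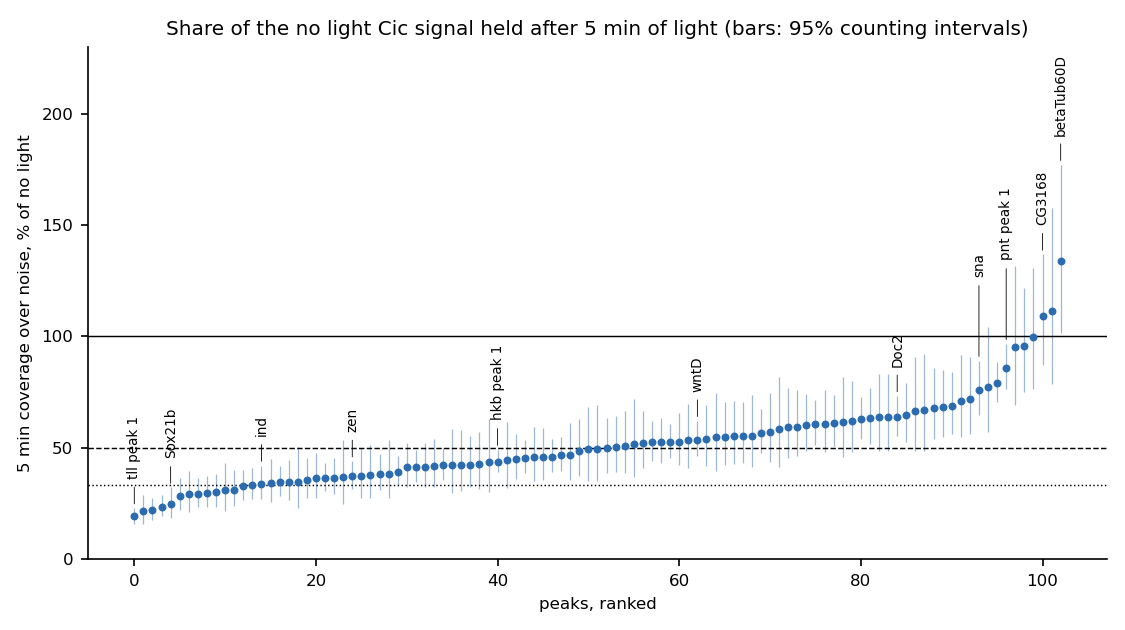
Share of no light coverage held after 5 min at the 103 peaks, ranked from the lowest (tll peak 1, 19.2%) to the highest (betaTub60D, 134%), with 95% counting intervals as bars. The solid line is 100%, the dashed line a 2-fold fall and the dotted line a 3-fold fall, and the peaks form a continuous series.

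The terminal gene tll, which encodes an orphan nuclear receptor that specifies both ends of the embryo, had the lowest share held on coverage over noise. Its promoter peak (peak 1, chromosome 3R, 30851662 to 30852585, dm6) had coverage over noise of 5.22 after 5 min and 27.3 without light. It thus held 19.2% (15.9 to 22.9), a 5.22-fold fall. Peak 2 (3R, 30849340 to 30850503), at -1812 bp from the start site, had 4.57 after 5 min and 19.4 without light and held 23.6% (19.3 to 28.7). The weak peak 3 (3R, 30856142 to 30856626), at 3827 bp from the start site, had 2.00 after 5 min and 4.06 without light and held 49.3% (35.0 to 68.5). The counting interval of peak 3 lay clear of those of both stronger peaks on this scale. With the noise level subtracted, peaks 1, 2 and 3 held 16.1%, 19.4% and 32.7%, and carried over to that scale the interval of peak 3 overlapped the others. On the same subtracted scale hbn held 12.1% and pdm2 15.5%, both below tll peak 1. On coverage over noise the counting interval of hbn overlapped that of tll peak 1.

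The gap gene hkb, a zinc-finger gene that acts beside tll at the poles, kept more. Its upstream peak 1 (3R, 4348112 to 4348940) had 14.9 after 5 min and 33.9 without light and held 43.8% (38.9 to 49.2). Its promoter peak 2 (3R, 4346449 to 4347038) had 8.21 after 5 min and 17.5 without light and held 46.8% (39.8 to 54.9). Both hkb peaks held a larger share than tll peaks 1 and 2, with counting intervals that did not overlap. After 30 min of light the 2 leading peaks were closer, since tll peak 1 held 10.9% and hkb peak 1 13.2% of the no light value that the 5 min shares also use.

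Other genes of the gap, terminal and head list were lower as well. The peak beside hbn, a homeobox gene of the head (2R, 20961439 to 20961819), had 2.02 after 5 min and 9.43 without light and held 21.4% (15.7 to 28.7), a 4.67-fold fall. The peak of fkh, a forkhead gene of the gut primordia (3R, 28586091 to 28586750), had 6.67 after 5 min and 18.3 without light and held 36.4% (30.6 to 43.2). An intron peak of the POU gene pdm2 had 1.70 after 5 min and 5.52 without light and held 30.8% (21.7 to 43.0). All 8 peaks of the list, from 5 of its 20 genes, were at least 2-fold lower, beside 51.5% of all peaks, with a median share of 33.6% beside 49.4% over all peaks. Without hbn, which was put on the list with its value known, the 7 others have a median of 36.4%. Among these 8 are hkb peak 1 and tll peak 1, the highest peaks without light.

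Peaks of the dorsoventral system covered a wide range. It comprises 13 peaks from 12 of 29 listed genes, all of them lower beyond counting error, 6 at least 2-fold, with a median share of 52.2%. Over all peaks 93.2% were lower and 51.5% at least 2-fold, so these counts are near the background. Without wntD, put on the list with its value known, the median of the other 12 is 49.6%. The lowest share was at tld, which encodes a protease that frees BMP ligands (3R, 24749130 to 24749622), with 4.43 after 5 min and 13.5 without light, a share of 32.7% (26.4 to 40.2). The neuroectoderm homeobox gene ind had 4.07 after 5 min and 12.03 without light and held 33.8% (27.1 to 42.0), but 55.2% of wild type. Signal at ths, which encodes an FGF, was 5.21 after 5 min and 15.1 without light, a share of 34.4% (28.3 to 41.7). The peak named for zen, a homeobox gene of the dorsal side, had 7.22 after 5 min and 19.3 without light and held 37.4% (31.6 to 44.0). That peak lies 173 bp from bcd, by the RefSeq annotation. Its local untagged level was 2.90 times the lowest of all peaks, against a median of 1.24 over peaks.

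The other dorsoventral peaks held more. The intron peak 1 of the BMP gene dpp held 45.6% (38.8 to 53.4) and its peak 2 held 55.4% (43.2 to 70.6). The repressor gene brk held 46.9% and the GATA gene pnr 52.2%. At the promoter of wntD, a Wnt gene that restrains Dorsal (3R, 13293257 to 13293787), coverage was 10.2 after 5 min and 18.9 without light, a share of 53.7% (46.3 to 62.2). The peak of zen2, the neighbour of zen, held 56.8% (47.7 to 67.4), and its interval lay clear of that of zen. On the highest 10 bp window zen2 and zen were closer, at 51.2% and 46.2%. The T-box genes Doc2 and Doc3 held 63.7% (55.3 to 73.3) and 68.3% (54.9 to 84.7). The mesoderm gene sna kept the largest share of this system, with 9.76 after 5 min and 12.8 without light, 76.0% (64.7 to 89.1).

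Peaks on the list of receptor tyrosine kinase and ERK genes held between 29.3% and 86.0%, with no listed peak between 37.7% and 54.7%. InR, itself a receptor tyrosine kinase gene, was not on the list. Its peak 1 held 60.2% and its peak 2 held 48.5%, the latter within that gap. All 11 listed peaks, from 7 of 32 listed genes, were lower beyond counting error, and 5 were at least 2-fold lower, with a median share of 54.7%. Both counts are close to the 93.2% and 51.5% of all peaks. The median depended on the window. It was 40.5% with windows of 100 bp and 42.1% on the highest 10 bp window, beside 43.9% and 45.0% over all peaks. The receptor gene Egfr (2R, 21523540 to 21524163) had an intron peak with 3.99 after 5 min and 13.6 without light, a share of 29.4% (23.5 to 36.4). Mkp3, the gene of an ERK phosphatase (3L, 19082968 to 19083540), had 3.12 after 5 min and 10.4 without light, a share of 30.0% (23.3 to 38.3). The feedback inhibitor gene sty had 2.07 after 5 min and 5.49 without light, a share of 37.7% (27.3 to 51.4), but 65.6% of wild type. At aos, which encodes a secreted inhibitor of the EGF receptor, the intron peak 2 held 29.3% (21.3 to 39.6), whereas the promoter peak 1 held 57.2% (43.6 to 74.5). Both peaks in introns of cic itself held more, 54.7% (42.0 to 70.7) and 63.6% (48.5 to 83.0). With windows of 100 bp cic peak 1 held 40.5%, within the gap given above, and cic peak 2 held 68.0%.

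The ETS gene pnt, whose product activates transcription downstream of ERK, had the highest share of this list at its promoter. This peak 1 (3R, 23314231 to 23314688) had 18.8 after 5 min and 21.8 without light, a share of 86.0% (76.4 to 96.7), which was lower by a small margin. Intron peak 2, whose centre lies close by (3R, 23315058 to 23315760), had 10.5 after 5 min and 16.7 without light and held 62.9% (54.2 to 72.9). Its window was not centred on the same place in both conditions, lying 760 bp from that of peak 1 after 5 min and 1030 bp without light. At 760 bp from the centre of peak 1 coverage was 17.8 after 5 min and 16.8 without light, and at 1000 bp 14.2 and 24.2. Aligned to the no light profile, peak 2 held 59.0%. The weaker peak 3 held 55.4% (41.5 to 73.5). With wild type in place of no light as the comparison, coverage after 5 min was 128% (112 to 146) at peak 1 and 102% (85.9 to 120) at peak 2. Peak 1 was thus lower than no light and higher than wild type, and at peak 2 the interval against wild type included 100%. The local untagged level of peak 1 was 1.08 times the lowest. After 30 min peak 1 held 13.5% of its no light value, and peak 2 14.7%.

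**Figure D3:**
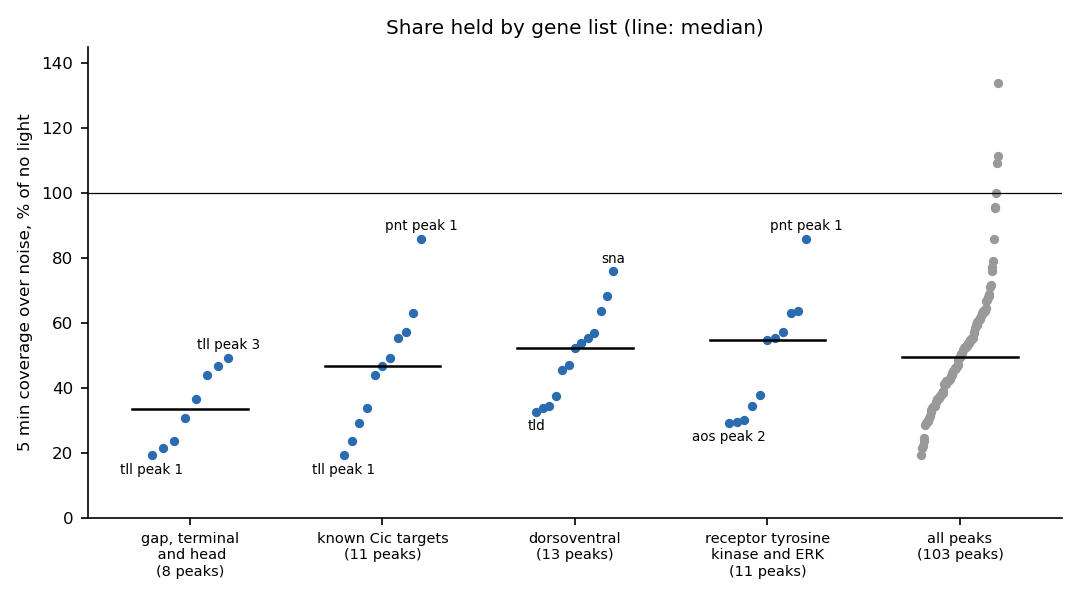
Share of no light coverage held after 5 min at each peak of 4 gene lists and of all 103 peaks, with the median of each as a line. The 8 gap, terminal and head peaks lie between 19.2% and 49.3%, while the other lists reach up to sna at 76.0% or pnt peak 1 at 86.0%.

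The known Cic targets, a list drawn from earlier work on Cic, had 11 peaks from 5 of 10 genes, namely aos, hkb, ind, pnt and tll. All 11 were lower beyond counting error, 7 at least 2-fold, beside 93.2% and 51.5% of all peaks, and their median share was 46.8%. The extremes of the list, tll peak 1 at 19.2% and pnt peak 1 at 86.0%, lay near the extremes of all peaks. Over all the lists together, 39 peaks belonged to a list, of which 39 were lower and 22 at least 2-fold, with a median share of 46.8%. Outside every list, 57 of 64 peaks were lower and 31 at least 2-fold, with a median of 50.6%. The 7 peaks of the list of gut and endoderm genes, which overlaps with the lists above, had a median of 46.8%. Its highest share, 76.0%, is that of sna, named above as a mesoderm gene. Also on it, srp, a GATA gene of endoderm and blood, held 52.5% (45.3 to 60.7) at peak 1 and 68.8% (56.2 to 84.1) at peak 2. The pair-rule gene prd held 36.4% (27.4 to 47.7) at peak 1 and 71.7% (56.4 to 91.0) at peak 2. The Hox gene abd-A held 63.2% (51.8 to 76.9), and the neural genes ind, pros and Tom held 33.8%, 36.8% and 41.3%.

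Peaks of other genes included some of the lowest shares. Peak 2 of Rpn12R (3L, 15040299 to 15041028), which lies within Sytbeta by the RefSeq annotation together with Rpn12R peak 1 and the ind peak, had 3.85 after 5 min and 17.4 without light and held 22.1% (17.7 to 27.4), or 34.8% of wild type. The SoxB gene Sox21b (3L, 14135704 to 14136199) had 2.47 after 5 min and 10.04 without light and held 24.6% (18.5 to 32.2). Its peak lies at -4407 bp from the start site. The PDZ protein gene bbg held 33.2% (26.8 to 40.8), and the zinc-finger gene disco 34.2% (25.8 to 44.8). The peak named for CG9220 lies inside sog, the BMP antagonist gene, by the RefSeq annotation, and held 35.5% (27.6 to 45.2). That of SdhAL, 1894 bp from byn, a T-box gene of the hindgut, held 45.1% (35.9 to 56.3).

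Several further regulators held between 37.4% and 62.2%. The zinc-finger homeobox gene zfh1 had 8.29 after 5 min and 17.99 without light and held 46.1% (39.2 to 53.9), and apt, which encodes a nuclear regulator, held 52.4% (44.1 to 62.2). The insulin receptor gene InR held 60.2% (48.5 to 74.4) at peak 1 and 48.5% (37.1 to 62.9) at peak 2. The X-signal gene sisA held 41.9% (32.3 to 54.0), and upd1, a JAK/STAT ligand gene, 45.9% (35.2 to 59.5). The Ras inhibitor gene Nf1 held 37.4% (27.6 to 50.04) and RasGAP1, of the same class, 60.8% (48.3 to 76.1). The zinc-finger genes shn and salm held 60.5% (51.1 to 71.5) and 62.2% (47.9 to 80.2). Apart from InR and salm, these genes, and bbg, disco, CG9220 and SdhAL, were picked after their values were seen.

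The remaining peaks filled the range between these examples, and all of them were lower beyond counting error. Between 34.4% and 49.8% lay CG32719, CG32026, eIF5B, tal-2A, a peak on 3L without a gene symbol (14151682 to 14152115), Lrt, CG16813, CG43401, emc, Su(z)2, cno, CG13716, RpS30, milt, Eip75B and tna. Between 50.3% and 64.7% lay CG16815, rib, shot, Atx-1, CG7029, kirre, toc, ND-20L, eIF4A, mtd, Pli, CG34224, CG15480, Shroom, dan and CG6163. Between 66.7% and 71.2% lay Or67d, S, which encodes the EGF ligand chaperone Star, the adhesion gene CadN and DNApol-epsilon255, whose peak lies 1490 bp from pnt. The highest untagged levels of all peaks were at tal-2A, 3.19 times the lowest, and CG15480, 3.04 times, which held 38.4% and 61.3%.

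At the other end were peaks with small losses. The promoter peak of CG12986 on X (17819364 to 17820471) had 19.8 after 5 min and 25.01 without light, a share of 79.0% (70.5 to 88.4). Its untagged level was 2.32 times the lowest, and the 5 min value was 101% of wild type (89.2 to 114). Beside it, sna had an untagged level of 1.88, and CG42807 one of 2.32. At CG42807 (2R, 13566548 to 13567083) signal was 4.80 after 5 min and 5.02 without light, a share of 95.6% (74.98 to 122), but this peak also had the lowest no light signal relative to wild type, 52.5%. Against wild type its 5 min value was 50.2% (40.3 to 62.3), so it was lower than that reference. The part of untagged material in the signal held at these peaks was not tested. Across all 103 peaks the share held and the untagged level had a Spearman correlation of 0.0216, and the 34 peaks with the highest untagged level held a median of 47.6%, the middle 34 held 52.1% and the lowest 35 held 52.2%. Levels of 2.17 were also found at ths and Mkp3, which lost more than most peaks.

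The peaks without a fall beyond counting error were weak without light. Besides CG42807, the counting interval included 100% at vlc, at Cyt-b5-r, whose peak lies inside the myosin gene Mhc, at trn, a gene of a leucine-rich repeat protein, at CG3168 and at a peak without a gene symbol (3R, 14391356 to 14391520). No light coverage at these other 5 peaks was between 2.30 and 5.42. The peak of CG3168 had 5.93 after 5 min and 5.42 without light, a share of 109% (87.3 to 137). With windows of 100 bp that share was 103%, and its highest 10 bp window was lower after 5 min, at 88.1% of no light. Only betaTub60D, a beta tubulin gene (2R, 24313219 to 24313405), was higher beyond counting error, with 4.36 after 5 min and 3.25 without light, a share of 134% (101 to 177). This 1 call is 0.971% of all peaks. Counting error alone would place up to 5% of unchanged peaks outside a 95% interval. After 30 min betaTub60D held 95.5%, trn 91.8%, vlc 82.5%, CG3168 73.4% and CG42807 72.2% of no light, and sna 55.9%, CG12986 43.8% and Doc2 35.2%. These shares use the same no light values as those at 5 min.

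Starting signal was read from wild type embryos, which do not enter the share. The 34 peaks with the highest wild type signal held a median of 42.9% (95% interval over peaks 35.5 to 52.5), the middle 34 peaks 50.04% (41.3 to 56.8) and the lowest 35 peaks 53.8% (45.9 to 63.6). A fall of at least 2-fold was seen at 21 of 34, 17 of 34 and 15 of 35 peaks in this order, and a fall of at least 3-fold at 9, 4 and 1. Share held and wild type signal had a Spearman correlation of -0.289 over 103 peaks. When the noise level was taken off both values before dividing, the same groups held 40.2%, 41.3% and 42.0% and the correlation was -0.0770. On that scale the medians of the 3 groups lay close together. Strong peaks were found at both ends, since tll peak 1 and CG12986 had wild type signals that ranked among the highest and held 19.2% and 79.0%.

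**Figure D4:**
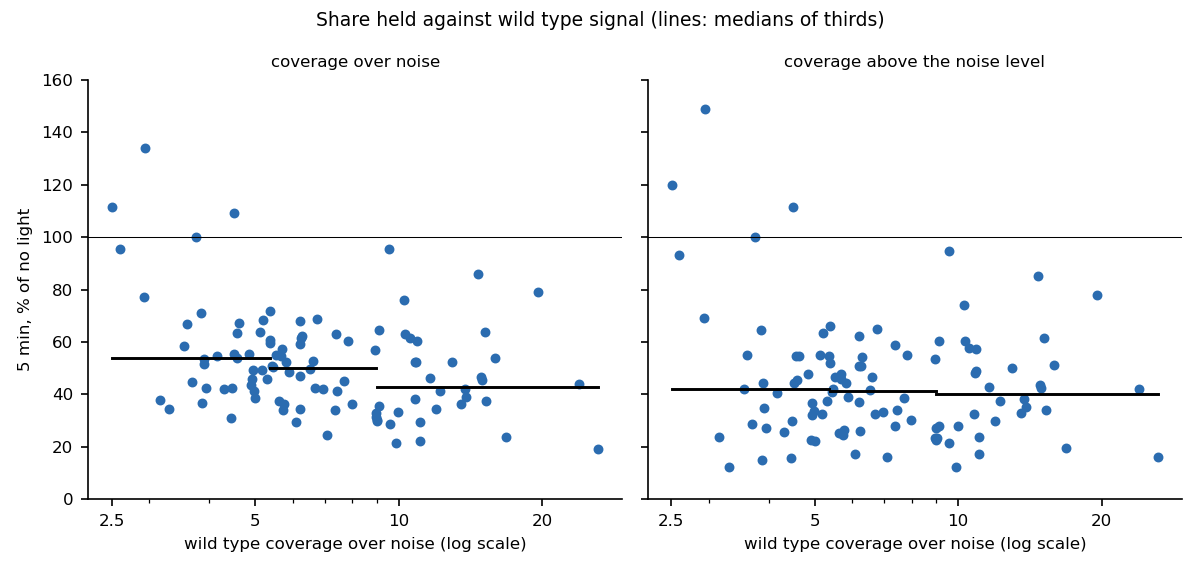
Share held after 5 min (percent of no light) against wild type coverage over noise (log scale) for the 103 peaks, with lines at the medians of the lowest 35, middle 34 and highest 34 peaks by wild type signal. On coverage over noise (left) the medians are 53.8%, 50.04% and 42.9% from low to high signal, and with the noise level subtracted (right) 42.0%, 41.3% and 40.2%.

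Position relative to genes separated the peaks little. The 27 promoter peaks of the authors' annotation held a median of 52.5% (95% interval over peaks 43.7 to 60.8), the 41 intron peaks 49.4% (39.0 to 54.7) and the 14 distal intergenic peaks 47.7% (34.2 to 76.0). The 14 peaks without a class held 49.2%, and the 4 downstream, 2 exon and 1 5′ UTR peaks held 41.7%, 52.0% and 67.1%. By distance to the start site the medians were 52.5% up to 1 kb (39 peaks), 45.1% from 1 to 3 kb (28), 49.3% from 3 to 10 kb (29) and 49.4% beyond 10 kb (7). For the first 3 distances, the peaks with the highest wild type signal held 46.8%, 37.4% and 52.4%. The middle group by wild type signal held 54.5%, 48.9% and 36.5%, and the lowest group 57.2%, 54.7% and 49.3%. These medians rest on 9 to 15 peaks each, and within each group their 95% intervals over peaks overlapped. Promoter peaks included both tll peak 1 at 19.2% and pnt peak 1 at 86.0%, and distal intergenic peaks both hbn at 21.4% and sna at 76.0%. Distal intergenic is the authors' class and holds peaks near genes. By the RefSeq annotation the last 2 lie 740 bp from hbn and 1752 bp from sna. By chromosome arm, the 25 peaks on 3L held 41.3% (34.5 to 49.8), 18 of them at least 2-fold lower, and the 13 on X held 41.9%, 9 of them at least 2-fold lower. The 34 peaks on 3R held 52.7%, the 14 on 2R 52.1% and the 17 on 2L 55.1%. Within the same 3 groups of starting signal, from high to low, 3L held 33.2%, 38.9% and 46.6% and 3R 44.9%, 55.7% and 55.0%, with 7 to 12 peaks each. Neighbouring peaks share a locus, so peaks of 1 arm are not separate measurements of it.

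Peaks within 10 kb of each other formed 11 loci, and in 6 of them the lowest and highest shares had counting intervals that did not overlap. With the noise level subtracted, an alternative chosen after seeing the data, 4 loci remained so, prd, aos, pnt and Rpn12R with ind. The 6 were tll, from 19.2% to 49.3%, prd, from 36.4% to 71.7%, aos, from 29.3% to 57.2%, and the Rpn12R and ind peaks, from 22.1% to 39.0%. The other two were pnt peaks 1 and 2, at 86.0% and 62.9%, and the cluster of CG15480, CG16813 and CG16815, from 42.1% to 61.3%. At hkb, dpp, srp, cic and fend the intervals overlapped. The span of these loci was between 1238 and 7286 bp.

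On coverage over noise, the share held was lowest near the centre of the windows. Within 50 bp of the centre median coverage over noise was 5.47 after 5 min and 13.2 without light, a median share of 42.9%. The share was 44.2% at 60 to 100 bp, 55.5% at 110 to 250 bp and 69.1% at 260 to 500 bp. At 510 to 1000 bp coverage was 1.43 after 5 min and 1.57 without light, a share of 90.2%, near the noise level in both. Coverage at 260 to 500 bp was also low, at 1.69 after 5 min and 2.56 without light. As coverage nears the noise level, that level makes up more of both values, which draws the share towards 100%. Shares by distance from the centre were not computed with the noise level subtracted. Width of the called peak and share held had a Spearman correlation of -0.304, and one of -0.129 with the noise level subtracted. Windows had been centred anew in each condition on the highest point nearby, which lay at the centre within 200 bp in 97 windows after 5 min and in 103 without light. Centres could therefore differ between conditions. The windows of cic peaks 1 and 2 lay 1070 bp apart after 5 min and 800 bp without light, those of fend 1530 and 1400 bp, and those of srp 770 bp in both. The profile of tll peak 1 matched its no light profile best at a shift of 220 bp, and so aligned it held 19.7%.

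Profiles showed the same contrasts. The top of tll peak 1 reached 7.39 times noise after 5 min and 40.6 without light. At hkb peak 1 the main top was 24.3 after 5 min and 53.1 without light, and a second top at 200 to 500 bp was 19.4 after 5 min and 44.7 without light, so that both tops were lower. The top of pnt peak 1 was 39.9 after 5 min and 43.0 without light, and that of CG12986 was 37.1 after 5 min and 43.4 without light. At hbn the central top was 3.51 after 5 min and 19.3 without light, whereas a side top at -900 to -650 bp was 8.41 after 5 min and 7.92 without light. The top of wntD was 18.5 after 5 min and 41.1 without light, a larger loss than in its mean over the window.

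**Figure D5:**
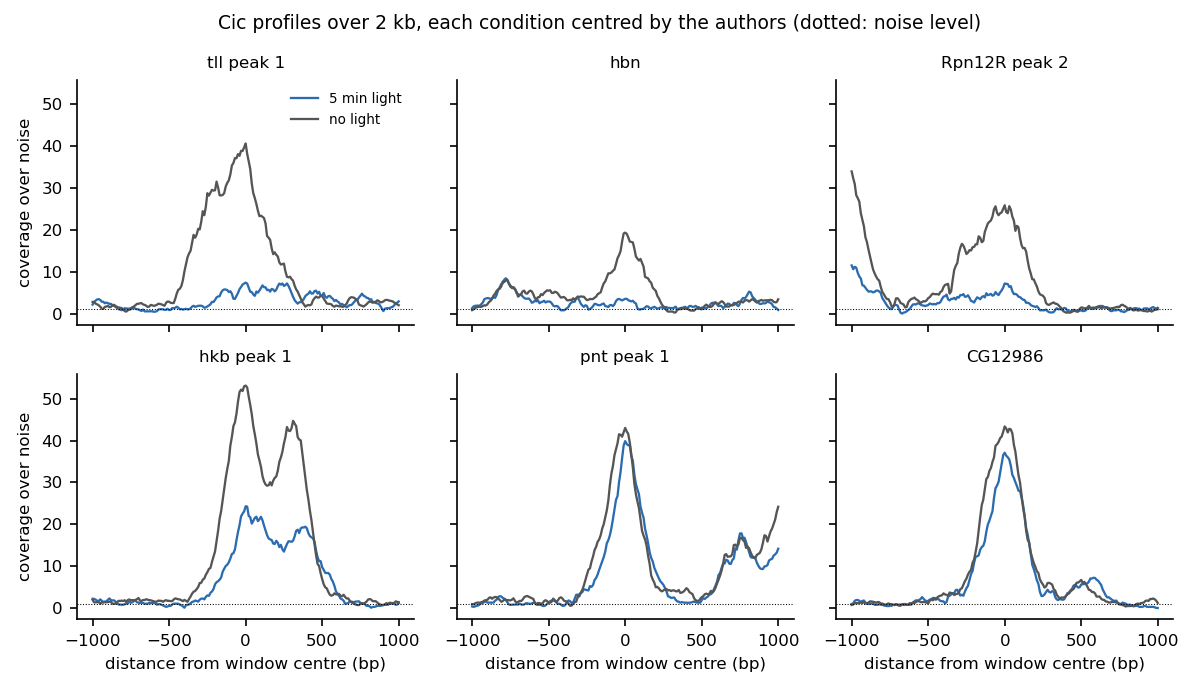
Coverage over noise in 10 bp windows over 2 kb for 6 peaks, after 5 min of light (blue) and without light (grey), with the noise level dotted. tll peak 1, hbn and Rpn12R peak 2 drop towards the noise level after 5 min, hkb peak 1 keeps 2 lower tops, and pnt peak 1 and CG12986 keep their shape and most of their height.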

How the data were processed

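The members, gene lists and rules were chosen with earlier results of these data known, so no list is independent evidence. The submitters' processing notes name dm6 as the build and list Trim Galore, BWA 0.7.17-r1188, SAMtools, MACS2 and ChIPseeker. MACS 2.1.2 called peaks on the pooled wild type tags (6994179) against untagged tags (5712080), with 74 bp tags extended to 145 bp and q 0.01, per the file headers. Fold enrichment over the untagged level, a ratio, and -log10 q values were deposited by the authors for each peak. The pileup, a coverage signal, was deposited beside them. The untagged level of a peak was worked back from its pileup and fold enrichment. It is therefore the local level against which MACS2 compared the summit, and not untagged coverage read at the summit itself. Many peaks lay near the lowest level, and the lowest 35 had a median of 1.03 times it. In the final list of 103 peaks the authors also gave a score, 10 times the -log10 q. How the list was filtered was not given in the sources used here.

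For each condition the authors deposited a matrix of z-scores in 201 windows of 10 bp for 103 peaks, a score scaled to reads in noise peaks according to the contents sheet of the deposited workbook. Columns carried no names. They were taken in the order of the peak list, and where windows of neighbouring peaks overlapped, 5 of 5 pairs were identical in each condition used. The z-scores lay on whole steps, which were read as bases of reads, with the lowest value as no coverage. A z-score of 0 was read as the mean of the noise peaks. The mean and SD behind the scores were not given, so these readings are assumptions. Stretches that looked like single reads held 74 or 75 bases in 2 of 2 cases after 5 min and in 0 of 1 without light. Read equivalents are read bases divided by 74. Shares have exact conditional intervals (SciPy 1.17.1), medians order-statistic intervals over peaks. The depth of the 6 libraries is not given in the files used. The calculation was tested on simulated data.

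Named were all peaks of the known target, gap, dorsoventral and receptor tyrosine kinase lists, all peaks of genes with several, all higher peaks, and, among the 52 peaks at or above median wild type signal, the 10 lowest and 10 highest shares. This rule gave 52 peaks, and others are named as groups, limits or examples picked after their values were seen. Gene positions came from the RefSeq annotation of the same genome release, which matched 88 of 88 gene names. Input libraries were not used here.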

Additional observations from a re-analysis of the deposited data

How the results depend on the processing

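The median share held over all peaks, 49.4%, was 43.9% with windows of 100 bp, 53.8% with 500 bp, 41.8% with the noise level subtracted, 55.5% against wild type and 44.4% among the 52 peaks at or above the median fold enrichment. By the smaller number of peaks, that last setting left 52 lower by any amount, 52 lower beyond counting error and 32 at least 2-fold lower. In the other settings, between 36 (against wild type) and 70 (noise subtracted) peaks were at least 2-fold lower, while 83 (against wild type) to 96 (aligned profiles) were lower beyond counting error wherever all 103 peaks were used. The middle 34 peaks by starting signal held 41.2% with windows of 100 bp. With the noise level subtracted, the lowest 35 held 42.0% and intron peaks 38.5%. Against wild type, pnt peak 1 was higher, at 128%, while pnt peak 2 at 102% and CG12986 at 101% had intervals that include 100%. Of the other named peaks, 23 had higher shares beyond their intervals and 1, CG42807, a lower one of 50.2%. Shares more than 1.5 times higher were 55.2% at ind, 65.6% at sty, 71.5% at fend peak 2, 34.8% at Rpn12R peak 2, 79.2% at srp peak 1 and 49.3% at tld. With the noise level subtracted, shares more than 1.5 times lower were 12.1% at hbn, 16.2% at Sox21b, 17.3% at aos peak 2, 32.7% at tll peak 3, 15.5% at pdm2 and 23.8% at sty. By arithmetic, taking off that level lowers any share below 100%, in proportion more where coverage is near the noise level. The cause of the differences against wild type was not tested. Aligned to the no light profile, all 52 named peaks stayed within their counting intervals. With windows of 100 bp 47 of them did and 5 held less, among them cic peak 1 at 40.5%, salm at 45.9% and fend peak 2 at 28.1%. Read from the highest 10 bp window, 42 did, 6 held less and 4 held more. Among those that held less was Doc2 at 52.5%, and among those that held more were abd-A at 89.3% and zen at 46.2%.

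No paired analysis was possible because each condition was deposited as 1 matrix with its replicates combined, and for the same reason the analysis without each replicate was not run. The comparison by sequence motifs was not run, since no genome was used here. Counting intervals are widest at weak peaks, as at Cyt-b5-r, which held 95.5% (69.0 to 132).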
